A study of Mus musculus with 8 samples.

Results

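The 10 genes described here encode the apolipoproteins that coat plasma lipoprotein particles: Apoa1, Apoa2, Apoa4, Apoa5, Apob, Apoc1, Apoc2, Apoc3, Apoc4 and Apoe. They were chosen by name, with earlier results of these data known, out of 63329 gene names carried by the 2 microarray designs of the study. All 10 were present on both designs, with 17 probes on the first and 13 on the second. The study asked whether bone marrow cells that settle in an injured liver take on the expression profile of hepatocytes. RNA of 4 cell populations was hybridised to 8 one-color Agilent arrays, 2 per population.

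Lin- BM cells, the negative control, were bone marrow cells depleted of lineage-marked cells by magnetic selection from female eGFP mice of the strain C57Bl6/J-Tg(UBCGFP) 30Scha/J, aged 6 to 8 weeks, in which the ubiquitin C promoter drives eGFP in nearly all tissues. BM-derived hepatocytes were eGFP-positive cells sorted from the hepatocyte fraction of perfused livers, 1 month or 5 months after such Lin- BM cells had been given to male hemophilia A mice that carry the F8tm1Kaz allele, 6 to 8 weeks old, whose liver had been injured with acetaminophen. Primary hepatocytes were the positive control, and the mice they came from are not given in the sources used here. Each array held cells pooled from 3 mice. In situ hybridization for the sex chromosomes in the study had found most of the sorted 5-month nuclei without a Y chromosome and a minority of cells fused with host cells. The p-values below measure only the spread between 2 arrays of pooled cells per group, and in such bulk samples fewer cells of a type and less RNA per cell cannot be told apart.

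The hepatocyte is the main source of plasma apolipoproteins, along with the enterocyte. Apob is the scaffold on which very low density lipoprotein is built in the endoplasmic reticulum, Apoa1 and Apoa2 are the main proteins of high density lipoprotein (HDL), and the small exchangeable apolipoproteins of the C group, with Apoa4, Apoa5 and Apoe, move between particles and set how fast lipoprotein lipase empties them and receptors clear them. Apoe in particular, and Apoc1, are made by macrophages too. In the mouse genome (RefSeq, GRCm38.p6), 4 members, Apoa1, Apoc3, Apoa4 and Apoa5, lie within 43292 bp of chromosome 9 (chr9:46228630-46271921), and another 4, Apoe, Apoc1, Apoc4 and Apoc2, within 29732 bp of chromosome 7 (chr7:19671579-19701310). Apoa2 (chr1:171221564-171226379) and Apob (chr12:7977629-8016839) stand apart from both clusters.

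Lin- BM cells and 1-month BM-derived hepatocytes shared slide 1, and primary hepatocytes and 5-month BM-derived hepatocytes shared slide 2, with a different probe design on each and a scan of its own. Comparisons within a slide therefore used all probes, whereas comparisons across slides used only probes of identical sequence, which existed for 7 members (Apoa1, Apoa2, Apoa4, Apob, Apoc2, Apoc4 and Apoe), and in these the slide and the group cannot be told apart. The probes behind most of the cross-slide values are printed in lower case, 5′ to 3′, because they are the measured sequences themselves, with positions on mm9 as the array files give them. The Apoa1 probe lies at chr9:46037921-46037980, Apoa2 at chr1:173156320-173156379, Apob at chr12:8023194-8023253 and Apoe at chr7:20281732-20281791 on the minus strand. The Apoa4 probe aligns across chr9:46049661-46050404 and the Apoc4 probe, on the minus strand, across chr7:20263609-20263965, intervals longer than the 60 bases of a probe, so each alignment spans a gap in the genome.
Apoa1 probe: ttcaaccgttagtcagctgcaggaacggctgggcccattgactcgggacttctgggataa
Apoa2 probe: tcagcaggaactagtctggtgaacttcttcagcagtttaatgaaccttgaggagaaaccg
Apoa4 probe: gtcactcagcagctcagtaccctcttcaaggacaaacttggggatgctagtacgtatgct
Apob probe: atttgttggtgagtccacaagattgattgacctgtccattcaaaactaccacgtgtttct
Apoc4 probe: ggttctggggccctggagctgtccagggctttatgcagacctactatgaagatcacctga
Apoe probe: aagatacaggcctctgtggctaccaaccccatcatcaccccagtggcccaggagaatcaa

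Levels below are log2 levels, the log2 of a probe's processed fluorescence minus the 75th percentile of its array, so that a level of 0 is the array's upper quartile. The upper-quartile signal ran from 75.47 to 193.2 fluorescence units over the 8 arrays, 47.68 to 58.6% of spots were well above background and 0 spots were saturated. Of 8 hepatocyte markers, the Lin- BM arrays had 4 not well above background (Alb, Ttr, Cps1 and Serpinc1), and the 1-month, 5-month and primary hepatocyte arrays had all 8 above it. Of 7 hematopoietic progenitor markers, 7 were called lower at 1 month than in Lin- BM cells by the criteria given below, as were 26.5% of all genes. All 7 were well above background on both Lin- BM arrays. At 1 month 5 and 6 of them still were, at 5 months 7 and 5, and in primary hepatocytes 6 and 4.

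The sex-linked genes went against the stated donor sex, which bears on every value of the sorted cells. Xist, which female cells express from the inactive X chromosome, had log2 levels of 3.81 and 2.73 in Lin- BM cells, and on none of the 4 BM-derived arrays was it well above background (1 month, -5.47 and -5.67; 5 months, -6.24 and -5.66). The Y-linked genes Ddx3y and Eif2s3y were well above background on all 8 arrays, and Ddx3y had 2.74 and 2.72 at 1 month against 2.78 and 2.62 at 5 months. Primary hepatocytes had 2.63 and 2.91 for Ddx3y and were likewise not well above background for Xist (-5.28 and -6.11). In the Lin- BM cells, stated to be from female donors, Ddx3y was at 2.18 and 1.44. The Y-linked Uty was well above background on all arrays but the replicate 1 array at 1 month. Kdm5d, also Y-linked, was well above it in Lin- BM cells (-0.5 and -0.89) and at 1 month (-1.56 and -1.07). On slide 2 Kdm5d was above it only on the replicate 1 array at 5 months (-3.17). The other 5-month array (-4.23) and the primary hepatocyte arrays (-5.47 and -4.09) were not. Of these genes, only Xist was above background in Lin- BM cells and on none of the BM-derived and primary hepatocyte arrays. The Y-linked genes did not set the groups apart in this way. Eif2s3y was at 3.07 and 2.92 in Lin- BM cells and 3.44 and 3.34 at 1 month, and Kdm5d was higher in Lin- BM cells than at 1 month. No cells known to come from the recipients alone were arrayed. Because all 4 BM-derived arrays lacked Xist signal above background, no comparison of BM-derived cells could be repeated without such arrays. The part of host hepatocytes in the apolipoprotein levels was not tested.

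A gene was called changed when its Benjamini-Hochberg adjusted p from limma was under 0.05 and its log2 change was at least 0.6 in size.

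The first comparison asked how far levels at 1 month lay from those of Lin- BM cells, the population given to the recipients. Rises and falls are differences between these groups, and descent of the sorted cells was not tested. All 10 apolipoprotein genes rose, by log2 changes between 4.89 (Apoe) and 15.35 (Apoc3), with a median of 12.2 (11.1 with the genes that have only a lower bound set at it) against a median of 0.0651 over all 28535 genes tested. Over all genes 28.8% were called higher. For 5 members (Apoa1, Apoa4, Apob, Apoc3 and Apoc4) no probe was well above background on either Lin- BM array, so the fold change is a lower bound, computed against the dimmest signal that still stood above background on each array. A probe can exceed that limit without being well above background itself, so these bounds are approximate. The log2 changes, SEs and adjusted p-values of these 5 members use the Lin- BM signals as measured, which lay below that limit. These values therefore do not measure expression in Lin- BM cells.

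The structural proteins of HDL and very low density lipoprotein all rose. Apoa1, the activator of lecithin-cholesterol acyltransferase, had log2 levels of 8.1 and 7.74 on the 1-month arrays and -6.71 and -6.27 on the Lin- BM arrays, where it was not well above background. It rose at least 5200-fold (log2 change 14.41, SE 0.31, adjusted p = 6.25e-05). Apob had levels of 7.32 and 7.15 at 1 month with its brightest probe and was not well above background on the Lin- BM arrays with any of its 5 probes, which gave lower bounds between 72.6-fold and 3240-fold. The distance between these bounds follows the brightness of each Apob probe at 1 month, where mean levels ran from 1.76 to 7.24. Apoa2, a second HDL protein, had levels of 9.88 and 10.02 at 1 month and -3.25 and -5.06 in Lin- BM cells with the probe of highest mean over the slide's 4 arrays, the rule by which each gene's probe was taken, and this probe was well above background on 1 of the 2 Lin- BM arrays (log2 change 14.1, SE 0.63, adjusted p = 0.000223). Its other probe, brighter at 1 month (10.08 and 10.11), was well above background on neither Lin- BM array (-4.8 and -4.46) and rose at least 23500-fold.

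Among the proteins that tune lipoprotein lipase, Apoc3, an inhibitor of triglyceride clearance, rose most. Its levels were 9.05 and 8.87 at 1 month against -6.46 and -6.33 on the Lin- BM arrays, neither of them well above background, a rise of at least 10700-fold (adjusted p = 6.02e-05), and its second probe gave at least 8510-fold. Apoc2, the cofactor that lipoprotein lipase requires, was measurable in Lin- BM cells at -1.3 and -3.16 and reached 8.12 and 8.3 at 1 month (log2 change 10.44, SE 0.65, adjusted p = 0.000503). Apoa5, which promotes lipolysis at the vessel wall, was also measurable in Lin- BM cells, at -3.58 and -3.5, and rose 1460-fold to 6.74 and 7.21, whereas its dimmer probe was well above background on neither of these arrays and rose at least 625-fold. The 1-month arrays lay far above the Lin- BM arrays for each of these genes.

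Lin- BM cells already had measurable levels of several members of the chromosome 7 group. Apoe, the ligand of the LDL receptor family, had log2 levels of 5.53 and 5.52 in Lin- BM cells (8877 and 8066 fluorescence units) and 10.4 and 10.42 at 1 month. Its rise of 29.6-fold (log2 change 4.89, SE 0.25, adjusted p = 0.000312) was the smallest among the 10 members. Apoc1, an inhibitor of lipoprotein uptake encoded next to Apoe, had levels of 0.63 and 0.18 in Lin- BM cells and 10.17 and 10.16 at 1 month, an 868-fold rise (adjusted p = 7.59e-05). Apoc4, between Apoc1 and Apoc2 on the chromosome, was well above background on neither Lin- BM array and rose at least 6880-fold to 8.41 and 8.24. Of the 4 neighbouring genes, then, 3 were well above background on both Lin- BM arrays and 1 on neither.

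Apoa4, a protein of chylomicrons and HDL that the intestine makes in quantity and the mouse liver in varying amount, was the member whose replicates differed most at 1 month. The 2 arrays of the 1-month group had levels of 7.39 and 4.49, or 12570 and 1999 fluorescence units, and the Lin- BM arrays -6.01 and -5.98, not well above background. The rise of at least 1320-fold (log2 change 11.94, SE 0.96, adjusted p = 0.000984) was large against this spread, but the SD of 2.05 (n = 2) at 1 month was far above that of the brightest probe of every other member in the same group, which ran from 0.01 to 0.34. Only the methods' t-test after Benjamini-Hochberg adjustment lost this call (adjusted p = 0.0603).

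**Figure D1:**
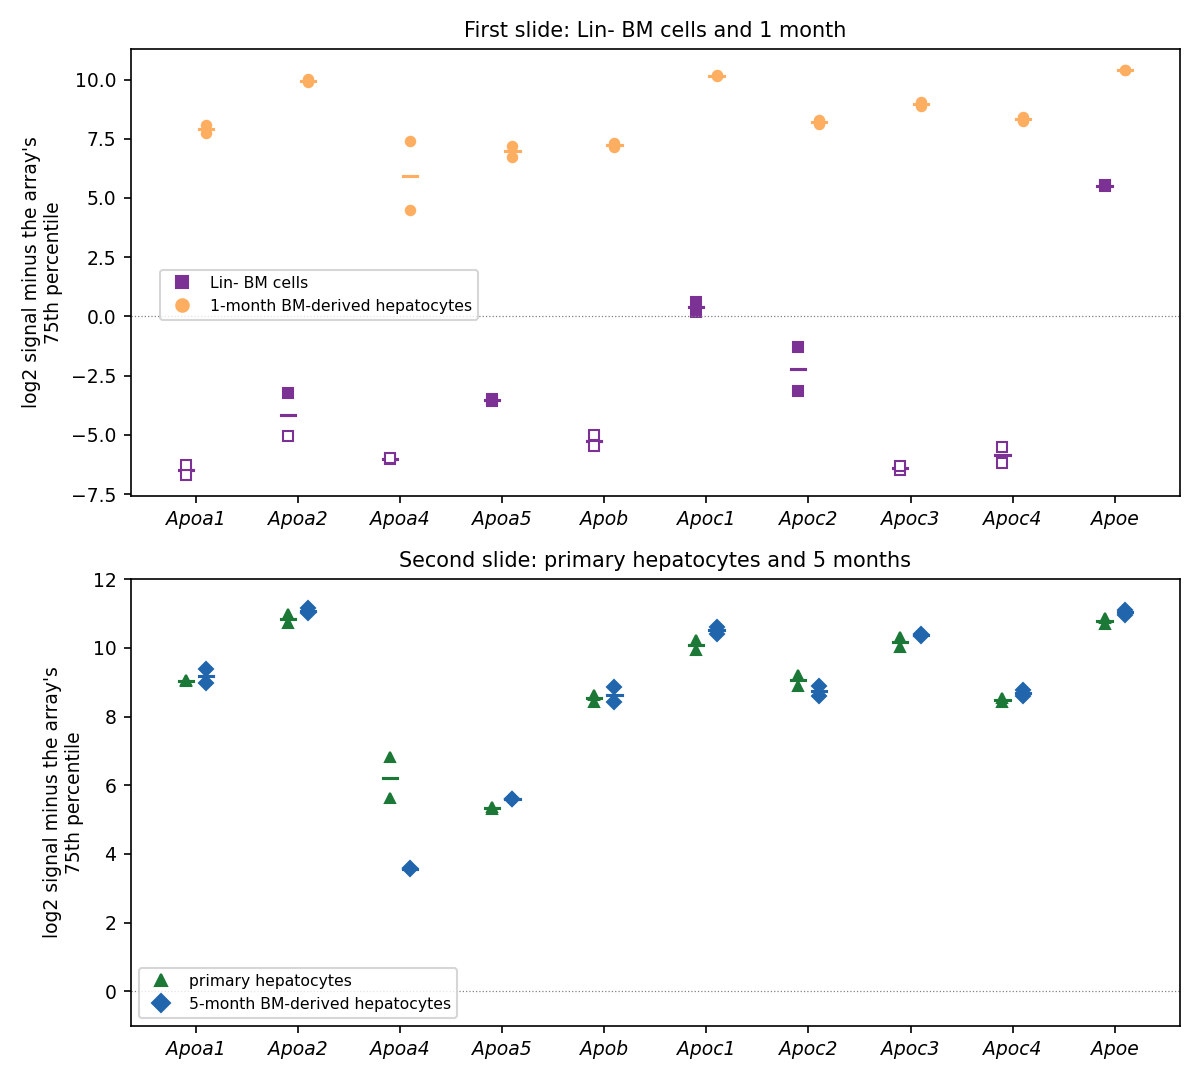
Log2 level of the brightest probe of each of the 10 apolipoprotein genes on each array, with slide 1 (Lin- BM cells and 1 month) above and slide 2 (primary hepatocytes and 5 months) below; filled points were well above background, open points were not, and the bar is the mean of 2 arrays. On slide 1 the groups are far apart for every gene, least for Apoe (log2 levels near 5.5 against 10.4), and on slide 2 they lie close together except for Apoa4.

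The other genes of lipoprotein metabolism were counted in lists chosen by function. Among other apolipoproteins, 6 of 6 tested rose at 1 month over Lin- BM cells (median log2 change 11.6, or 10.6 with bounds in place of the fitted values). Apoh, a phospholipid-binding plasma protein, rose at least 15800-fold, Saa4 at least 1930-fold and Apof at least 3770-fold, all 3 being not well above background on either Lin- BM array. The HDL protein Apom, measurable in both groups, rose by 10.2 on the log2 scale. Apod was not bright enough to be tested. Of 10 genes of lipoprotein assembly and secretion 9 rose (median 3.12), including Mttp, which loads lipid onto Apob (8.66), and the triglyceride synthesis enzyme Dgat2 (8.47), whereas Dgat1 had a log2 change of 0.4 and was not called.

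Of 8 tested genes for HDL formation and remodelling 7 rose and 1 fell. Their median was 4.11, or 3.95 with bounds. The HDL-bound esterase Pon1 rose at least 9090-fold and Lcat, which esterifies cholesterol on HDL, at least 219-fold, both from Lin- BM levels not well above background, and the sterol exporter Abcg1 fell by 2.01 on the log2 scale. The receptor list was mixed, with 5 rises and 3 falls among 11 tested (median 0.72). The lipolysis-stimulated receptor Lsr rose by 6.95 on the log2 scale. The Apoe receptor Lrp8 was at least 4.44-fold lower, and the receptor ubiquitin ligase Mylip fell by 1.51 on the log2 scale. All 6 genes of lipoprotein lipase and its regulators rose (median 4.48; Angptl8 7.26), as did 13 of 14 tested regulators known at apolipoprotein promoters (median 7.34, or 7.32 with bounds). Foxa2, a pioneer factor of liver genes, rose at least 1070-fold and the fatty acid receptor Ppara at least 562-fold, neither of them well above background in Lin- BM cells. The sterol receptor Nr1h2 had a log2 change of 0.08 and was not called.

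The genes that flank the apolipoprotein loci moved in both directions. Of the 40 RefSeq genes that form the 5 nearest neighbours on each side of the 4 loci, 21 could be tested between 1 month and Lin- BM cells, and 7 rose and 8 fell, with a median log2 change of -0.4, where 28.8% of all genes were called higher and 26.5% lower. The xenobiotic receptor Nr1i3, near Apoa2, rose by 5.88 and Nectin2, near Apoe, by 5.15 on the log2 scale, and the Fc receptor chain Fcer1g, which adjoins Apoa2, fell by 2.05.

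The second comparison set the 5-month cells against primary hepatocytes on the same slide. None of the 10 members was called different, against 0.552% of 19933 genes over the whole array, and 1 of 10 had an unadjusted p under 0.05. The member median was 0.198 log2 units and the median of all genes 0.0356. The 2 groups did not overlap for 8 of 10 members (6 higher and 2 lower at 5 months), against 47.9% of all genes (25.2% higher and 22.7% lower).

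For 9 of the 10 members the difference between 5 months and primary hepatocytes was at most 0.41 log2 units in size, with limma's adjusted p between 0.505 and 0.902. Apoa1 had log2 levels of 8.98 and 9.37 at 5 months and 9.06 and 9.02 in primary hepatocytes (difference 0.13, 95% interval -0.5 to 0.77). Apob had 8.86 and 8.41 against 8.43 and 8.64 (0.1, -0.59 to 0.78). These were the members whose groups overlapped.

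Apoa2 differed by 0.22 (95% interval -0.37 to 0.82), with levels of 11 and 11.15 at 5 months over 10.71 and 10.99 in primary hepatocytes. Apoe had 10.95 and 11.11 over 10.7 and 10.88, a difference of 0.25 (-0.32 to 0.81). Apoc1, with 10.4 and 10.62 over 9.95 and 10.24, had a difference of 0.41 (-0.2 to 1.03). All 3 were slightly higher on both 5-month arrays, by less than their intervals resolve.

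Apoa5 had log2 levels of 5.61 and 5.59 at 5 months and 5.36 and 5.31 in primary hepatocytes (0.26, -0.26 to 0.79). Apoc4 had 8.6 and 8.76 against 8.42 and 8.53 (0.21, -0.34 to 0.76). Apoc2, the lipase cofactor, was lower at 5 months, with 8.59 and 8.88 against 8.9 and 9.2 (-0.31, -0.96 to 0.33). The intervals of these members reach 0.79 above and 0.96 below 0, and with 2 arrays a group an uncalled difference need not be 0.

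The 2 probes of Apoc3 on slide 2 gave differences of opposite sign. The brighter had levels of 10.33 and 10.39 at 5 months over 10.03 and 10.31 in primary hepatocytes (0.19, -0.4 to 0.77), whereas the dimmer, near the upper quartile of the array, had 0.34 and 0.45 against 0.88 and 0.91, a difference of -0.5. The second Apob probe also differed in size from the first, with 8.34 and 8.15 at 5 months over 7.26 and 7.94 in primary hepatocytes, a difference of 0.65. Within each of these genes the choice of probe therefore moved the difference by more than the gene's bright-probe difference itself.

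Apoa4 was the exception among the members. The 5-month arrays had log2 levels of 3.59 and 3.55 (1483 and 1209 fluorescence units), and the primary hepatocyte arrays 6.82 and 5.62 (16020 and 6208 fluorescence units). The 5-month level was 6.28-fold lower (difference -2.65, 95% interval -3.86 to -1.44, SE 0.45), and only 104 of 19933 genes, 0.522%, had a difference as low or lower. Its adjusted p from limma was 0.131, so the difference was not called. With either primary hepatocyte array left out it was called, at -2.05 (adjusted p = 0.0174) without replicate 2 and -3.25 (adjusted p = 0.0111) without replicate 4, in a fit where the lone array was assumed to vary like the other group, whose own arrays differed little for this gene (SD 0.03, n = 2). In those fits the calls over all genes also rose, from 73 higher and 37 lower to 735 and 662 without replicate 2 and 705 and 602 without replicate 4. With either 5-month array left out no gene of the array was called, and limma's adjusted p for Apoa4 was 0.653 without replicate 1 and 0.702 without replicate 3.

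**Figure D2:**
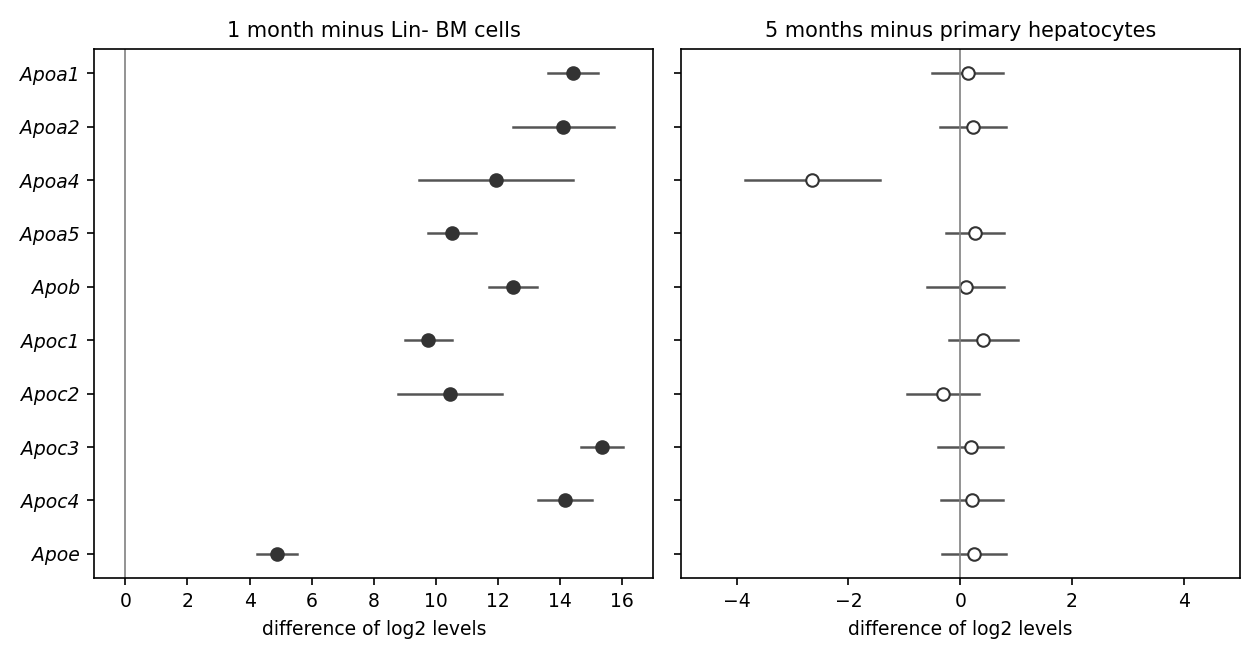
Log2 difference of each apolipoprotein gene and its 95% interval from limma, 1 month against Lin- BM cells and 5 months against primary hepatocytes. Filled points were called (adjusted p under 0.05 and at least 0.6 in size). At 1 month against Lin- BM cells every tested member lies far above 0. Between 5 months and primary hepatocytes only Apoa4 lies clear of 0 (-2.65), and it was not called.

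No gene of the 6 pathway lists was called between 5 months and primary hepatocytes. The list medians were 0.02 for other apolipoproteins, 0.115 for assembly and secretion, -0.1 for HDL formation, 0.39 for receptors, 0.545 for lipoprotein lipase and its regulators and -0.13 for promoter regulators, beside 0.0356 over all genes. Among the loci's neighbours, 21 could be tested, and the protease gene Adamts4 near Apoa2 and the zinc finger gene Zfp296 near Apoe were called higher at 5 months, by at least 3.09-fold and at least 9.64-fold, since neither was well above background in primary hepatocytes.

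Markers of other cells were counted in the same way, since macrophages also make Apoe and Apoc1. The summed level of 11 Kupffer cell and macrophage markers, in multiples of the array's upper quartile, was 135 and 134 at 5 months and 35.8 and 77 in primary hepatocytes, with 10 of 11 markers well above background on both 5-month arrays (Cd163 was not). Of 10 tested 0 were called between these groups, although all 10 had positive differences (median 0.98), the largest for Marco (4.67, adjusted p = 0.179). On slide 1 the same sum was 4.24 and 10.2 in Lin- BM cells and 12.8 and 50.9 at 1 month, where 5 of 11 markers rose. The part of these cells in the levels of Apoe and Apoc1 was not tested.

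The enterocyte is the other known source of Apoa4. Of the 3 enterocyte markers with a probe, Lct was not well above background on any of the 6 hepatocyte arrays, Vil1 was above it on 2 of them, and Fabp2 was above it on all. Fabp2, the 1 marker tested there, did not pass the test between 5 months and primary hepatocytes (-0.04, adjusted p = 0.954), and it rose by 10.62 on the log2 scale from Lin- BM cells to 1 month. Lct was above background on both Lin- BM arrays and fell by at least 1.42-fold to 1 month (adjusted p = 0.00646). The markers summed to 119 to 146 on the hepatocyte arrays and to 0.378 and 0.196 in Lin- BM cells. Fabp2 made up most of the hepatocyte sums, with mean log2 levels of 7.04 at 1 month, 7.1 at 5 months and 7.14 in primary hepatocytes. Neutrophil markers summed to 75.5 and 15.4 at 5 months and 13.1 and 24.8 in primary hepatocytes (0 of 4 called), and to 628 and 115 in Lin- BM cells and 2.33 and 1.29 at 1 month (6 of 6 lower). Erythroid markers (28.4 to 54.8 on the hepatocyte arrays, 213 and 219 in Lin- BM cells), stellate cell markers (8.74 to 45.9 on the hepatocyte arrays, 8.93 and 159 in Lin- BM cells), sinusoidal endothelial markers (45.9 to 61.8, against 1.48 and 1.53) and cholangiocyte markers (0.0736 to 2.03, against 0.152 and 0.0931) gave 0 calls between 5 months and primary hepatocytes.

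The remaining comparisons crossed slides and rested on the 7 shared probes. All 7 members were higher than in Lin- BM cells both at 5 months and in primary hepatocytes, where 29.4% of the 9212 shared genes were called higher in each comparison. Since both comparisons use the same Lin- BM arrays, their values are given side by side. At 5 months the log2 differences were 15.46 for Apoa1, 15.12 for Apoa2, 9.37 for Apoa4, 13.68 for Apob, 10.77 for Apoc2, 14.31 for Apoc4 and 5.31 for Apoe. In primary hepatocytes they were 15.29, 14.81, 11.98, 13.54, 11.04, 14.06 and 5.02 in the same order. For Apoc2 and Apoe both sides were well above background, and for the other 5 the Lin- BM arrays gave bounds only, from at least 221-fold (Apoa4) to at least 30900-fold (Apoa2) at 5 months and from at least 1350-fold to at least 24900-fold in primary hepatocytes.

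The 1-month cells were set against primary hepatocytes to ask whether they already held hepatocyte levels. None of the 7 members was called, against 16.7% of all genes, and 3 of 7 did not overlap between the groups, all lower at 1 month, whereas 64.6% of all genes did not overlap and 24.6% did so with lower values at 1 month. Apob had log2 levels of 5.87 and 5.76 at 1 month and 6.73 and 6.97 in primary hepatocytes (-1.03, adjusted p = 0.0636), and Apoa1 had 6.65 and 6.35 against 7.35 and 7.35 (-0.85, adjusted p = 0.0616). Apoc2 had 6.68 and 6.91 against 7.2 and 7.53 (-0.57). Apoa2, Apoa4, Apoc4 and Apoe differed by between -0.11 and 0.12. Both Apoa1 and Apob were called lower under 5 of the alternative settings, namely normexp, another percentile, no dim filter, the authors' values and the methods' t-test without adjustment, and Apob also without either Lin- BM array.

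Between 5 months and 1 month, 2 of the 7 members were called, both higher at 5 months. Of all genes 17.1% were called in either direction, 5.82% higher and 11.2% lower. Apob, the scaffold of very low density lipoprotein, had log2 levels of 7.23 and 6.74 at 5 months and 5.87 and 5.76 at 1 month (log2 difference 1.17, 95% interval 0.45 to 1.89, adjusted p = 0.0446). Apoa1 had 7.35 and 7.7 against 6.65 and 6.35 (1.02, 0.43 to 1.61, adjusted p = 0.0369). All 7 members had groups that did not overlap, against 71.7% of all genes (29% higher and 42.7% lower at 5 months). Of the 7 members 6 were higher at 5 months, where the all-gene median was -0.144.

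The other 5 members moved less or with more spread. Apoa2 differed by 0.37, Apoe by 0.39, Apoc2 by 0.29 and Apoc4 by 0.13. Apoa4 had levels of 1.96 and 1.88 at 5 months and 5.94 and 3.1 at 1 month, a difference of -2.6 (95% interval -4.69 to -0.52, adjusted p = 0.0851). Both 5-month arrays lay below both 1-month arrays, and with the replicate 2 array of the 1-month group left out the gene was called lower at -4.02 (adjusted p = 0.0182), while Apoa1 and Apob were then not called.

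The calls of Apoa1 and Apob depended on the scaling. Under quantile normalization neither was called (0.85 and 1.01, adjusted p = 0.056 and 0.0518), and under normexp background correction 4 of 7 members were, Apoa2 and Apoa4 besides these. Neither was called when any 1 of the 6 hepatocyte arrays was left out (adjusted p from 0.0519 to 0.191 for Apoa1 and from 0.0589 to 0.219 for Apob). When the percentile came from the whole of each design in place of the shared probes, the median of all genes moved from -0.144 to 0.0831, and the share of called genes that were higher at 5 months moved from 34.1% to 52.7%.

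**Figure D3:**
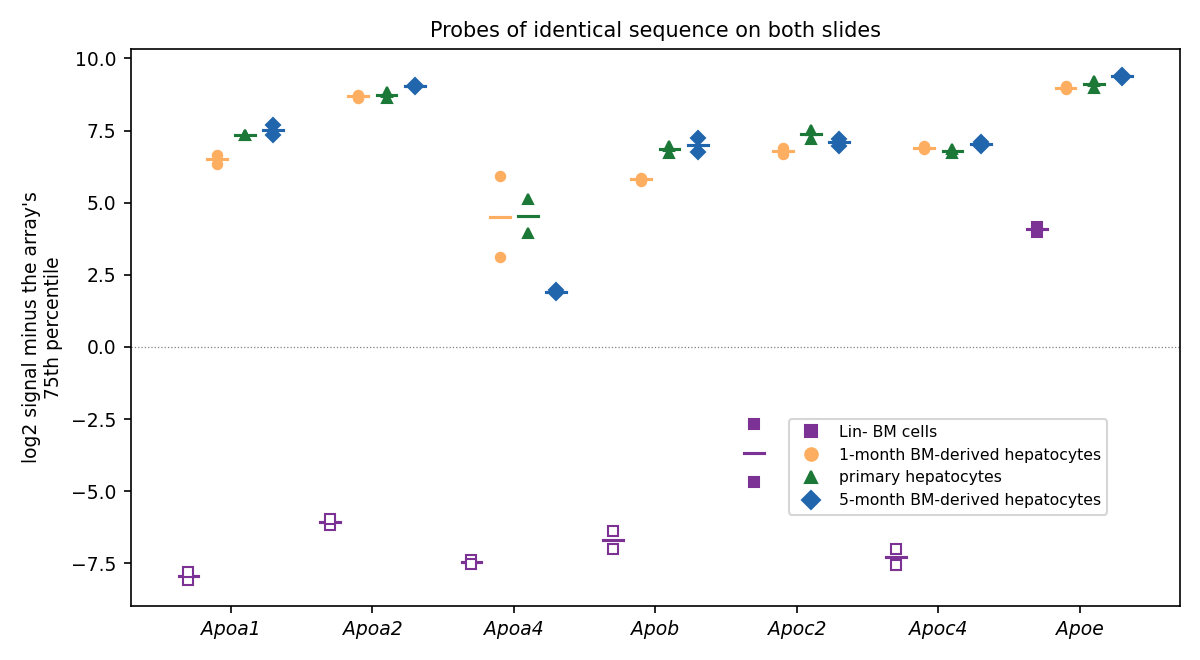
Log2 levels of the 7 apolipoprotein genes with a shared probe on all 8 arrays, scaled to the 75th percentile of the shared probes; filled points were well above background and open points were not. All 7 lie far below the hepatocyte arrays in Lin- BM cells, Apoa1 and Apob lie lower at 1 month than at 5 months or in primary hepatocytes, and Apoa4 lies lowest among the hepatocyte arrays at 5 months (1.96 and 1.88).

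Ordered by group mean on the shared probes, Apoa1 was lowest in Lin- BM cells (-7.94), followed by 1 month (6.5), primary hepatocytes (7.35) and 5 months (7.52), and the last pair did not differ beyond its spread. Apob kept the same order, with 5.82 at 1 month, 6.85 in primary hepatocytes and 6.99 at 5 months. Apoa4 was ordered differently, with 1.92 at 5 months, 4.52 at 1 month and 4.53 in primary hepatocytes above -7.45 in Lin- BM cells, and the SD of 2.01 (n = 2) at 1 month left the last pair indistinguishable. Apoe had 4.08 in Lin- BM cells, 8.99 at 1 month, 9.1 in primary hepatocytes and 9.39 at 5 months, of which the first pair of hepatocyte groups overlapped.

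Over all shared genes, 5.82% were called higher at 5 months than at 1 month and 11.2% lower. Of the pathway lists on shared probes, assembly and secretion had 3 of 6 genes higher at 5 months than at 1 month, namely the cargo receptor gene Mia2 (2.45), Dgat1 (1.26) and P4hb, the partner subunit of the Mttp protein (1.06). In the lipase list, Lpl and its endothelial anchor Gpihbp1 were lower at 5 months (-1.36 and -1.09) among 4 tested. The heparan sulfate proteoglycan Sdc1, a remnant receptor, was higher (1.83) as the only call of 8 in the receptor list, and Cebpa (1.35) the only call of 5 among the promoter regulators. None of 7 HDL genes and none of 5 other apolipoproteins were called. Beside these, 1 of 6 hepatocyte markers was higher at 5 months (Alb, 1.04, with a list median of 0.615), as were 2 of 8 macrophage markers, Csf1r and Marco. Under normexp 4 of 6 hepatocyte markers and 1 of 8 macrophage markers were called higher, and under quantile normalization 0 and 2. The part of either list in the changes of Apoa1 and Apob was not tested.

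Against primary hepatocytes, the 1-month cells had lower Lcat (-1.23), Dgat1 (-0.9) and Sdc1 (-1.35) and higher Gpihbp1 (1.55) and Sort1, a sorting receptor for Apob (1.47). These were the calls in the 6 lists apart from Lrp8, which was not well above background in either group.

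**Figure D4:**
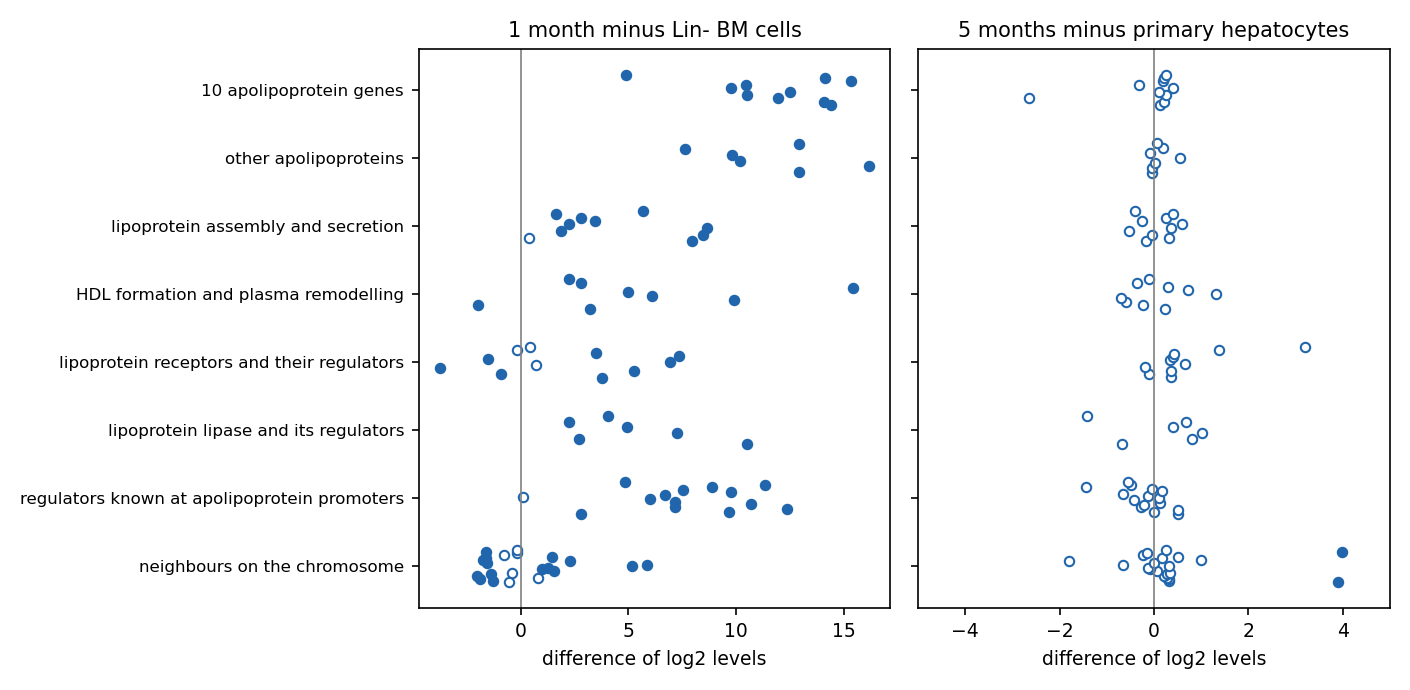
Log2 differences of the genes in the 6 lipoprotein lists and of the genes flanking the apolipoprotein loci, by comparison; filled points were called. At 1 month over Lin- BM cells the lists lie mostly above 0 while the flanking genes lie on both sides (7 higher and 8 lower of 21 tested), and between 5 months and primary hepatocytes 0 list genes and 2 flanking genes were called.

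The genes with the pattern most like a member over the 8 arrays were found by Pearson's r on the shared probes. Apoa1 was nearest to Vtn, Cpn2 and Alb (r of 0.9997 with each), Apoa2 to Ambp, Apoh and Ahsg, Apob to Vnn3, Hrg and Cyp2d34, Apoc2 to Fbp1, Slc27a5 and Cyp2c23, Apoc4 to Ces1c, Ambp and Dmgdh, and Apoe to Cyp2d26, Gcgr and Serpind1. Apoa4 was nearest to Vegfa (0.9972), Apcs (0.9956) and Tmprss2 (0.9952). The 8 arrays form a Lin- BM pair and 6 hepatocyte arrays that lie far apart, so these coefficients mostly describe that gap.

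Because the members rose together over Lin- BM cells, the bases upstream of their start sites were read from RefSeq (GRCm38.p6), which had a window for 8 of the 10 genes. Those of Apoa1, Apoa4 and Apob, the 3 members whose hepatocyte groups differed most, are shown for chr9:46228380-46228629, chr9:46240594-46240843 and chr12:7977427-7977628, all on the plus strand. Bases of the 250 that lie inside any RefSeq gene are not printed, 48 for Apob and 0 for Apoa1 and Apoa4. The motif counts below used all 250. Capitals mark a TATAAA motif.
Apoa1 upstream: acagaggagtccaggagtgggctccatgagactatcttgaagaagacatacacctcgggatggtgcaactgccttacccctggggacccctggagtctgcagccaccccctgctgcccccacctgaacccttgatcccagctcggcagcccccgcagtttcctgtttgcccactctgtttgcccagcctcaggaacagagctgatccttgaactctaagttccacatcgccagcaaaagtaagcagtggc
Apoa4 upstream: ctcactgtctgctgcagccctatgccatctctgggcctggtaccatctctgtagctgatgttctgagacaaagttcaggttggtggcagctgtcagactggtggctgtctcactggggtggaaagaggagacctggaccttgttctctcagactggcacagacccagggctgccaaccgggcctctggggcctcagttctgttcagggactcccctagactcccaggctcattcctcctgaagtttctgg
Apob upstream: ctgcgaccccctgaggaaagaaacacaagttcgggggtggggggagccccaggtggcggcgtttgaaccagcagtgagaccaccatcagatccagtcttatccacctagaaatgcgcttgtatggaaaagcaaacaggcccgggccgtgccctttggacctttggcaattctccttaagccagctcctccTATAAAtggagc

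The 8 genes had 12 windows of 250 bases, one for each start site listed, which were searched on both strands. TATAAA was present in 5 of the 12 (Apoa2, Apoa5, Apob and Apoe) and in 12.4% of 32851 RefSeq windows. The nuclear receptor half-site AGGTCA was present in 3 of the 12 (Apoa2, Apoc2 and Apoc4) and in 14% of all windows. The HNF4-type sequence CAAAGTCC was present in 0 of the 12 and in 1.2% of all windows. The motifs and windows were chosen after the sequences were seen, and a match describes letters only.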

How the data were processed

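The authors hybridised Cy3-labelled RNA to one-color Agilent arrays, scanned them and extracted them with Agilent Feature Extraction, named in the submitters' processing notes, and shifted the log values to the 75th percentile in GeneSpring GX. The deposited scanner files hold fluorescence intensity per spot (processed signal with detection flags). The deposited value tables hold log2 values, which matched log2 signal minus a constant per array and served as an alternative.

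Outlier and control spots were left out, spots of a probe averaged, and log2(processed signal) reduced by each array's 75th percentile (of all probes within a slide, of shared probes across slides). Probes entered the test when flagged well above background by every array of 1 or more groups; a gene took its brightest probe. Changes came from lmFit and eBayes (limma 3.58.1, R 4.3.3) on the 4 arrays of a slide, or on the 8 arrays for shared probes, and Benjamini-Hochberg adjusted over all genes tested. Calls required a log2 change of 0.6 or more in size besides an adjusted p under 0.05. The scripts were tested on simulated data with 200 changed genes. An exact permutation test of 2 against 2 arrays cannot go below p = 0.33. Arrays give no read depth, and the number of arrays limits the precision. Columns with per-sample values but no sample numbered 0.

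Samples were grouped by the submitters' labels. Some list genes are not reported here. All 10 members were named with every probe; of each list at most 4 genes were named (largest called rises and falls, and uncalled genes of small counts), of the neighbours some called genes, and the 3 genes most correlated with each member over 8 arrays. Members, lists and rule were chosen with earlier results of these data known, and the sex-linked genes were checked after the other results were seen. Alternatives were normexp with offset 50, quantile normalization, other probes for the percentile, no dim filter, the mean of a gene's probes, the value tables, the methods' t-test, a pooled fit on shared probes and leaving out each array. The methods' t-test was applied with the 0.6 limit, at unadjusted p under 0.05 and after Benjamini-Hochberg adjustment.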

Additional observations from a re-analysis of the deposited data

Results flagged for a closer look

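Apoa1 and Apob differed between 5-month and 1-month BM-derived hepatocytes by a test of the difference itself, with log2 differences of 1.02 (SE 0.25, adjusted p from limma = 0.0369) and 1.17 (SE 0.3, adjusted p = 0.0446), each higher on both 5-month arrays. The time points lay on different slides, so slide and time cannot be told apart. Over the alternatives limma's and the other tests' adjusted p ran from 0.00513 to 0.191 for Apoa1 and from 0.00887 to 0.219 for Apob.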

How the results depend on the processing

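The counts of members higher than in Lin- BM cells stayed at all members tested under every alternative for 5 months and primary hepatocytes. For 1 month they did so except under the methods' t-test with Benjamini-Hochberg adjustment (9 of 10). Between 5 months and primary hepatocytes, 1 member (Apoa4) was called under the methods' t-test without adjustment, and 0 to 1 with an array left out. Between 1 month and primary hepatocytes, 2 were called under normexp, with other probes for the percentile, without the dim filter, with the authors' values and under the unadjusted t-test, and 0 to 1 with an array left out. Between 5 months and 1 month, 4 were called under normexp, 1 without the dim filter, 0 under quantile normalization and 0 under the adjusted t-test, and 0 to 2 with an array left out. The cause was not tested.

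Signs turned only for differences near 0 or for Apoa4 at 1 month. Apoc3, 5 months against primary hepatocytes, was -0.16 as the mean of its probes; with an array left out Apoa1 ranged from -0.06 to 0.33 and Apob from -0.13 to 0.32. For 1 month against primary hepatocytes, quantile normalization gave 0.06 for Apoa2 and 0.02 for Apoa4, Apoc4 was -0.15 with other probes and -0.16 with the authors' values, and with an array left out Apoa2 ranged from -0.17 to 0.04 and Apoa4 from -1.43 to 1.41. For 5 months against 1 month, quantile normalization gave -0.07 for Apoa2 and -0.08 for Apoc4.

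Scaling moved all genes too: normexp moved the median at 1 month over Lin- BM cells from 0.0651 to 0.363 (52.1% to 62.8% of calls higher), other probes moved that of 1 month against primary hepatocytes from 0.174 to -0.0945 (69.4% to 49.9%; 53% under quantile normalization), and 26.3% of calls were higher between 5 months and 1 month under normexp and 46.9% under quantile normalization.

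No paired analysis was possible because the groups compared share fewer than 2 replicate numbers. Slide as a block could not be fitted, since a comparison lies within 1 slide or its groups lie on different slides. With 2 arrays a group an uncalled difference need not be 0, and lower bounds were set by each array's background.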
